A study of Mus musculus with 8 samples.

Results

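The expression of 10 genes known as markers of the choroid plexus epithelium was followed through the hippocampal libraries of wild-type and Mbd2-/- mice: Ttr, Enpp2, 1500015O10Rik, Kl, Aqp1, Folr1, Clic6, Slc4a5, Prlr and Ace. They are 10 of the 19201 genes in the table and were selected by symbol. The set was chosen with earlier results of the same genotype comparison known, so the genotype differences of these 10 genes chose them and are given as a description, with no test.

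The choroid plexus is a folded sheet of epithelium over a vascular stroma inside the brain ventricles, and it secretes most of the cerebrospinal fluid. Its epithelial cells move sodium, bicarbonate, chloride and water from blood to ventricle, carry folate and hormones across, and release proteins such as transthyretin into the fluid. The choroid plexus of the lateral ventricle attaches along the fimbria, at the edge of the hippocampus. In whole-tissue RNA, more choroid plexus cells in a sample and more RNA of these genes per cell cannot be told apart.

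RNA was sequenced from the hippocampi of C57BL/6 mice aged 10 to 12 weeks, wild-type or Mbd2-/-, with 4 libraries of each genotype. Each library held the hippocampi of 2 mice, so a replicate is a pool and not an animal, and both sexes were used. Mbd2, the methyl-CpG-binding domain protein 2, binds methylated DNA, and it is lacking from the germline in every cell of the Mbd2-/- mice, so a difference in the hippocampus need not arise there. The animals were littermates from heterozygous parents. The values are normalized counts, the reads of a gene divided by a library's size factor.

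Depth ran from 8439570 to 23790825 reads on genes in the wild-type libraries and from 8087750 to 14020765 in the Mbd2-/- libraries. Mbd2 itself lay between 295 and 371 normalized counts in wild-type and between 217 and 339 in Mbd2-/- libraries. The Mbd2-/- allele keeps exon 1, so that reads on the gene do not check the labels. Among the 14504 genes that averaged 10 or more normalized counts, 1735 were called higher in Mbd2-/- (12.0%) and 1450 lower (10.0%) by limma at an adjusted p under 0.05, with a median log2 difference of 0.00. Defining genes of hippocampal neurons were abundant, with Camk2a at 68037 ± 941 normalized counts in wild-type (SD, n = 4).

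All 10 genes were higher in Mbd2-/-, by 1.47-fold to 2.51-fold, and for each of them the lowest Mbd2-/- library lay above the highest wild-type library. Such a separation, higher in Mbd2-/-, held for 12.1% of all tested genes, and 12.0% were called higher. The members were chosen on this contrast, so nothing is read from their count. Every member had a wild-type mean of at least 119 normalized counts, and none owed its place above the minimum of 10 to the Mbd2-/- libraries.

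Of the secreted proteins, the most abundant was Ttr on chromosome 18, which encodes transthyretin, the carrier of thyroxine and of retinol-binding protein. It measured 13462, 12133, 12295 and 13154 normalized counts in wild-type replicates 1 to 4 and 32557, 33461, 34941 and 27304 in Mbd2-/- replicates 1 to 4. The means were 12761 ± 648 and 32066 ± 3323 (SD, n = 4 each), a 2.51-fold difference and a log2 difference of 1.32 ± 0.06 (SE). Replicate 4 was the lowest of the Mbd2-/- libraries and still above every wild-type library. Ttr and Mbd2 lie on the same chromosome, 49.9 Mb apart in the mm9 annotation.

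Enpp2 (mm9 chromosome 15, 54670453 to 54751701) encodes autotaxin, a secreted enzyme that makes lysophosphatidic acid, and is also made by oligodendrocytes. Its normalized counts were 9922, 9501, 9490 and 9651 in wild-type and 14254, 15150, 14198 and 15109 in Mbd2-/-. The libraries of each genotype sat close together, at 9641 ± 201 and 14678 ± 522, and differed by 1.52-fold (log2 difference 0.61 ± 0.04 SE). 1500015O10Rik (chromosome 1, 43787447 to 43799423), listed as Ecrg4 in RefSeq, encodes augurin, a secreted peptide precursor. It was counted at 174, 145, 148 and 156 in wild-type and at 312, 324, 341 and 273 in Mbd2-/-, means of 156 ± 13.0 and 312 ± 28.9, a 2.01-fold difference (log2 1.0 ± 0.09 SE). As for Ttr, replicate 4 was the lowest of the Mbd2-/- libraries. Kl (chromosome 5, 151755182 to 151796384) encodes klotho, a co-receptor for fibroblast growth factor 23 that is also shed as a soluble protein. Its 4 wild-type libraries held 802, 882, 795 and 876 normalized counts and its 4 Mbd2-/- libraries 1278, 1231, 1186 and 1235. The means of 839 ± 46.7 and 1232 ± 37.7 gave the smallest difference among the 10 genes, 1.47-fold (log2 0.56 ± 0.06 SE).

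Among the transport proteins, Aqp1 (mm9 chromosome 6, 55286426 to 55298549), the water channel of the apical membrane, came nearest to Ttr in its difference. Its normalized counts were 132, 111, 117 and 114 in wild-type and 286, 268, 288 and 243 in Mbd2-/-, means of 119 ± 9.17 and 271 ± 21.0, a 2.29-fold difference (log2 1.19 ± 0.09 SE). Folr1 (chromosome 7, 109006845 to 109019302), the folate receptor that carries folate into cerebrospinal fluid, was counted at 130.4, 118, 132 and 127 against 289, 279.8, 314 and 248. Its means of 127 ± 6.26 and 283 ± 27.3 differed by 2.22-fold (log2 1.14 ± 0.09 SE). For both genes replicate 4 was again the lowest Mbd2-/- library. Clic6 (chromosome 16, 92485981 to 92541488), of the chloride intracellular channel family, gave 385, 434, 403 and 405 in wild-type and 683, 657, 697 and 699.6 in Mbd2-/-. The Mbd2-/- libraries were tight, at 684 ± 19.6 against 407 ± 20.2 in wild-type, a 1.68-fold difference (log2 0.75 ± 0.06 SE). Slc4a5 (chromosome 6, 83169822 to 83254939), the sodium bicarbonate cotransporter NBCe2, measured 129, 134, 126 and 125 against 259, 231, 222 and 229. Its means of 128 ± 4.10 and 235 ± 16.5 differed by 1.83-fold (log2 0.87 ± 0.08 SE), with replicate 1 the highest of the Mbd2-/- libraries.

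The remaining pair are a receptor and an enzyme of the cell surface. Prlr (mm9 chromosome 15, 10106993 to 10303504), the prolactin receptor, was the most variable member within Mbd2-/-, at 478, 520.4, 443 and 611 normalized counts, against 303, 314, 274 and 335 in wild-type. Its means of 307 ± 25.3 and 513 ± 72.6 differed by 1.67-fold (log2 0.73 ± 0.09 SE), and here replicate 4 was the highest Mbd2-/- library. Ace (chromosome 11, 105829259 to 105851278), the angiotensin-converting enzyme, held 423, 418, 421 and 412 in wild-type and 678, 693, 695 and 568 in Mbd2-/-. The wild-type libraries barely differed, at 418 ± 4.89, while Mbd2-/- replicate 4 lay apart from the other 3, and the mean of 659 ± 60.9 was 1.57-fold higher (log2 0.65 ± 0.07 SE).

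**Figure D1:**
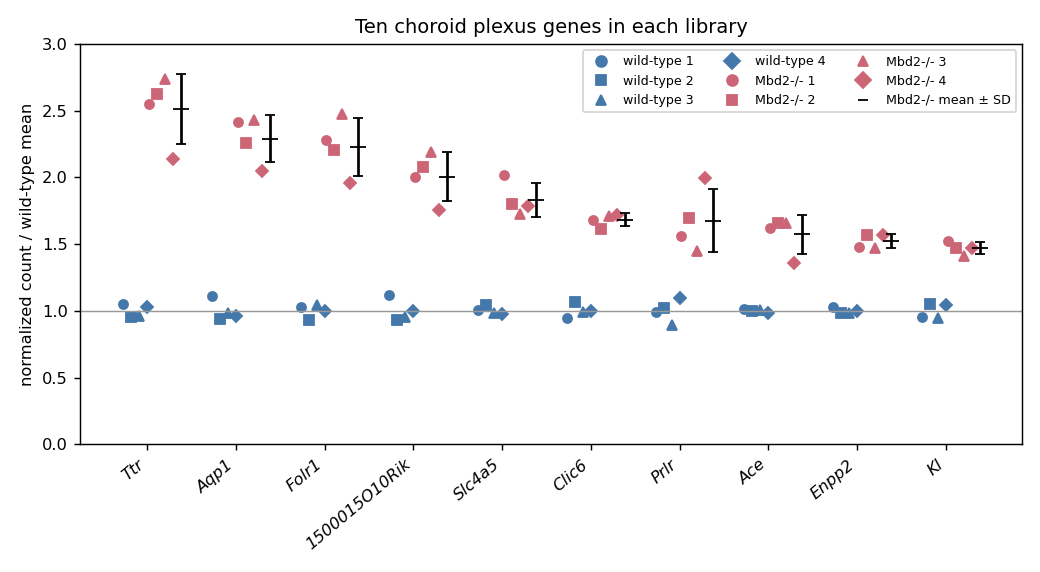
Normalized count of each gene divided by its wild-type mean (vertical axis, linear, from 0) in the 4 wild-type (blue) and 4 Mbd2-/- (red) libraries, with a marker shape for each replicate number and the Mbd2-/- mean ± SD in black. No gene has overlapping genotypes, and the folds of the means run from 2.51 for Ttr to 1.47 for Kl.

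Levels can be compared between genes per kilobase of their longest annotated transcript. On that scale Ttr stood at 10469 ± 531 normalized counts per kilobase in wild-type and 26305 ± 2726 in Mbd2-/- (SD, n = 4). Enpp2 followed at 2837 ± 59.3 and 4320 ± 154. The other 8 genes lay between 25.1 (Slc4a5) and 173 (1500015O10Rik) in wild-type and between 45.9 (Slc4a5) and 346 (1500015O10Rik) in Mbd2-/-. In wild-type 1500015O10Rik at 173 ± 14.4 and Kl at 164 per kilobase, neighbours in this order, were closer than the spread of the former.

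The genes were not multiplied by 1 common factor. The geometric mean of their folds over the wild-type mean was 1.02, 0.99, 0.97 and 1.01 in wild-type replicates 1 to 4 and 1.88, 1.87, 1.87 and 1.76 in Mbd2-/- replicates 1 to 4. Inside each Mbd2-/- library, though, the folds spread from 1.48 (Enpp2) to 2.55 (Ttr) in replicate 1, from 1.47 (Kl) to 2.62 (Ttr) in replicate 2, from 1.41 (Kl) to 2.74 (Ttr) in replicate 3, and from 1.36 (Ace) to 2.14 (Ttr) in replicate 4. Ttr was the highest in all 4. The parts of RNA from other cells, such as Enpp2 in oligodendrocytes, and of transcript length (below) in this spread were not tested.

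Ttr had the largest fold of the 10, so by arithmetic every other member took a smaller place against it in Mbd2-/-. The ratios describe only by how much. Per 1000 normalized counts of Ttr, Enpp2 went from 756 ± 24.8 in wild-type to 463 ± 63.5 in Mbd2-/- (SD, n = 4), 0.612 times as much, and Kl from 65.9 ± 5.42 to 38.8 ± 4.80, 0.589 times as much. The ratio was 0.626 for Ace, 0.673 for Clic6, 0.679 for Prlr, 0.734 for Slc4a5 and 0.80 for 1500015O10Rik. Folr1 at 0.885 and Aqp1 at 0.914 stayed nearest to Ttr. For 7 of the 9 genes the count per 1000 Ttr was lower in every Mbd2-/- library than in any wild-type library, and for Aqp1 and Prlr the genotypes overlapped. The ratio of 1500015O10Rik was the tightest of all within Mbd2-/-, at 9.57, 9.68, 9.76 and 10.0 per 1000 Ttr. That spread is below the counting error of this gene, an SD of 0.10 on the log2 scale with 214 to 354 reads per Mbd2-/- library. The tightness is therefore not read as scaling with Ttr.

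Transcript length moved with these differences. Over 14186 genes with a length, the log2 deviation of a library from the wild-type mean had a Spearman's rho with transcript length of -0.48, -0.43, -0.48 and -0.10 in Mbd2-/- replicates 1 to 4, and of 0.06, -0.07, 0.01 and -0.03 in wild-type replicates 1 to 4. In 3 of the Mbd2-/- libraries, shorter transcripts thus stood higher. The 3 shortest members were 1500015O10Rik at 902 bases, Ttr at 1219 and Folr1 at 1383, all with a log2 difference of 1.0 or more. When the length trend was taken out of each library, their log2 differences became 0.73, 1.12 and 0.96. Prlr, the longest at 9900 bases, went the other way, from 0.73 to 0.88, and Slc4a5, Ace and Kl also went up, to 0.94, 0.72 and 0.63. Aqp1 at 1.15, Clic6 at 0.78 and Enpp2 at 0.61 moved little. Aqp1 was then the highest of the 10, ahead of Ttr, and Enpp2 the lowest. The place of Aqp1 below Ttr, given above, was therefore not kept. The part of the length trend in the deposited differences was not tested.

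**Figure D2:**
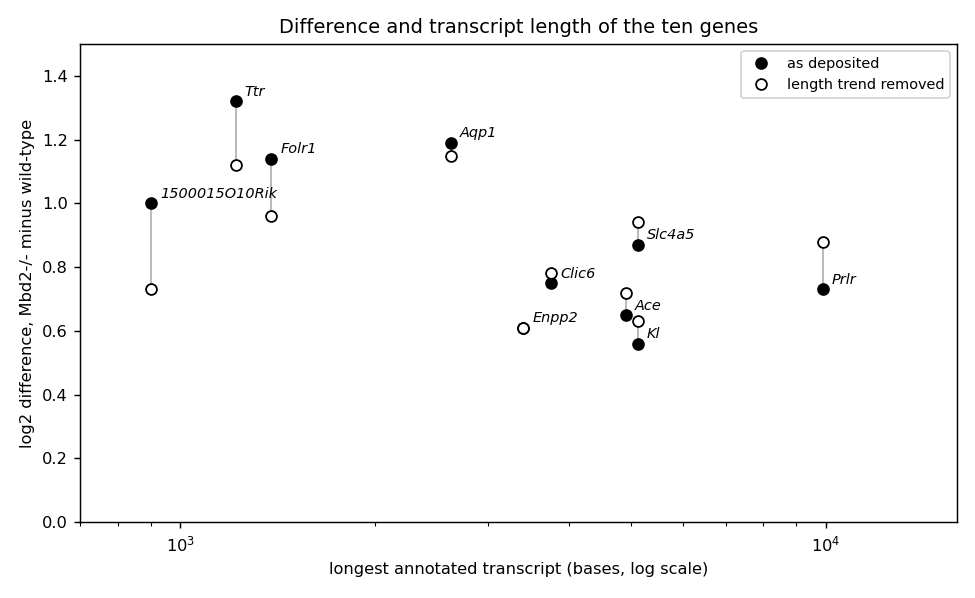
Log2 difference between genotypes (vertical axis) against the longest annotated transcript in bases (horizontal axis, log scale) for the 10 genes, as deposited (filled) and with the length trend removed (open). The 3 shortest genes come down and Prlr goes up from 0.73 to 0.88; for Enpp2 the points coincide at 0.61.

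Whether the genes rose and fell together from library to library was described with the genotype means taken out, so that each library gave 1 deviation per gene, 8 in all with 6 degrees of freedom. The members did not move as 1 block. Over the 45 pairs the median Pearson's r was -0.14, 27 pairs were negative, and the values ran from -0.87 for Folr1 with Prlr to 0.94 for Ttr with 1500015O10Rik. The libraries share their depth and length trend across genes, so these correlations are descriptions.

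Of the 9 others, 4 members followed Ttr. Their r with it was 0.94 for 1500015O10Rik, 0.88 for Ace, 0.85 for Folr1 and 0.80 for Aqp1, and 7.06% of all 14494 genes compared reached an r of 0.8 with Ttr. Slc4a5 (-0.07), Kl (-0.21), Enpp2 (-0.25), Clic6 (-0.48) and Prlr (-0.63) did not follow it. The library farthest from its genotype mean for these genes was Mbd2-/- replicate 4, in which Ttr, 1500015O10Rik, Aqp1, Folr1 and Ace were the lowest of the Mbd2-/- libraries and Prlr the highest. It is also the Mbd2-/- library with the weakest length trend. Without it, r with Ttr was 0.94 for 1500015O10Rik but 0.62 for Aqp1, 0.58 for Folr1 and 0.22 for Ace. That of Enpp2 became 0.38, above Ace, that of Prlr 0.09, that of Kl -0.38, that of Clic6 -0.52 and that of Slc4a5 -0.57. Which members followed Ttr, other than 1500015O10Rik, thus depended on this library. With the length trend removed from all 8 libraries, the values were 0.85 for 1500015O10Rik, 0.72 for Aqp1, 0.63 for Folr1, 0.58 for Ace, 0.20 for Enpp2, -0.09 for Slc4a5, -0.10 for Kl and Prlr and -0.66 for Clic6. The share of genes with r of at least 0.8 was then 2.85%.

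How much of the spread could be counting of reads differed between members. The within-genotype SD of Ttr on the log2 scale was 0.12 against 0.01 from counting alone, and that of Enpp2 0.04 against 0.01. For Prlr it was 0.16 against 0.08, for Ace 0.10 against 0.06, for 1500015O10Rik 0.13 against 0.10 and for Kl 0.06 against 0.05. The spread of 1500015O10Rik and of Kl was thus little above counting error. Aqp1 and Folr1 (0.11 against 0.11), Clic6 (0.06 against 0.06) and Slc4a5 (0.08 against 0.11) were at or below their counting error, so for these 4 genes a shared movement between libraries is close to the limit of the depth.

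**Figure D3:**
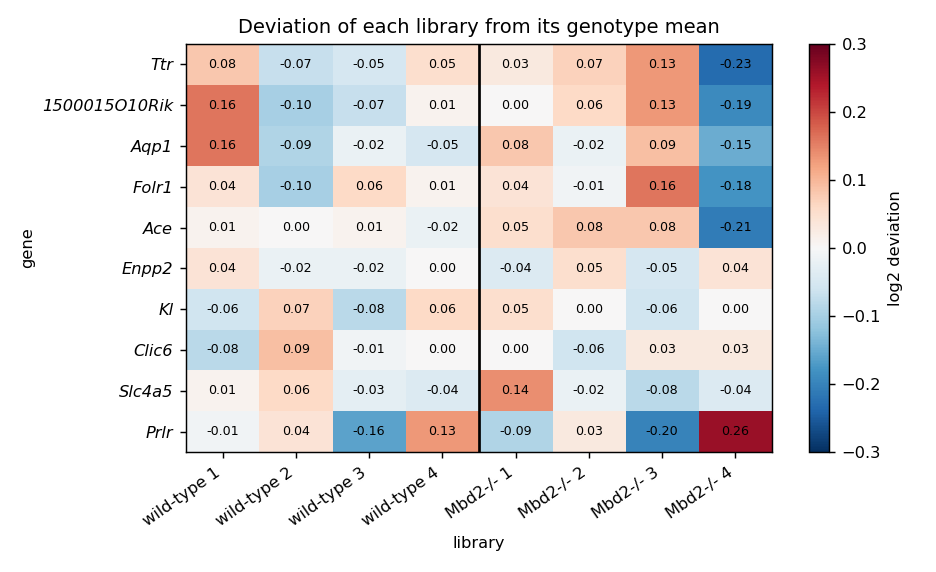
Log2 deviation of each library (columns, wild-type left of the line and Mbd2-/- right) from the mean of its genotype for the 10 genes (rows). Mbd2-/- replicate 4 is low for Ttr, 1500015O10Rik, Aqp1, Folr1 and Ace and high for Prlr.

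**Figure D4:**
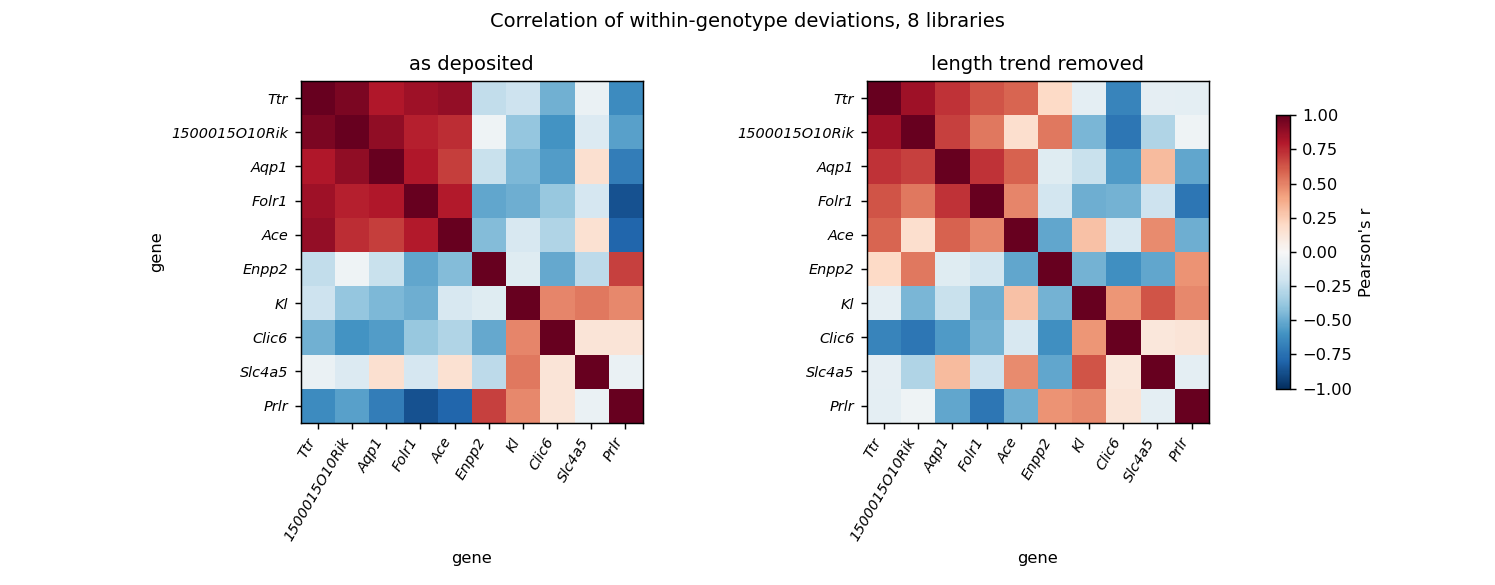
Pearson's r between the within-genotype deviations of each pair of genes over 8 libraries (colour, -1 to 1), as deposited (left) and with the length trend removed (right), the genes in the same order on both axes. The block of Ttr, 1500015O10Rik, Aqp1, Folr1 and Ace is paler on the right, and Folr1 with Prlr is the most negative pair on the left at -0.87.

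The 10 other genes whose deviations tracked the mean deviation of the members most closely, of 10621 that averaged 100 or more normalized counts, were Atp6v1d and Pck2 (r = 0.97 each) and Slc25a4, Fam58b, Tubg2, Galnt16, Gstm5, Ppp1ca, Pwwp2b and Snap47 (r = 0.96 each), over 8 libraries. Their log2 differences between genotypes ran from -0.13 (Galnt16) to 0.44 (Gstm5), below those of all the members, and they are not among the other choroid plexus genes listed here.

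Promoter sequence was available for 6 of the 10 genes in the RefSeq table, as windows of 250 bases before to 50 after an annotated start in the GRCm38.p6 build, which differs from the mm9 build of the gene positions. The following windows are shown because Mbd2 binds methylated CpG dinucleotides, written as CG in capitals, and because they run from few to many: 1500015O10Rik with fewer than the median of all windows (chr1:43730352-43730651, plus strand), Aqp1 near that median (chr6:55336049-55336348, plus strand) and the first start of Ace with many (chr11:105967698-105967997, plus strand). Methylation was not measured in these libraries.
1500015O10Rik: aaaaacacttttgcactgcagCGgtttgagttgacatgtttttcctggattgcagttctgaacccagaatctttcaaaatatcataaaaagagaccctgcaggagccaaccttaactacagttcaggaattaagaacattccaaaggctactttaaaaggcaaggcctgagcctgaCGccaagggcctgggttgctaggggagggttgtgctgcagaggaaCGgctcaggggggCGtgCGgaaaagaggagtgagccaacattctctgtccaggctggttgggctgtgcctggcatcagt
Aqp1: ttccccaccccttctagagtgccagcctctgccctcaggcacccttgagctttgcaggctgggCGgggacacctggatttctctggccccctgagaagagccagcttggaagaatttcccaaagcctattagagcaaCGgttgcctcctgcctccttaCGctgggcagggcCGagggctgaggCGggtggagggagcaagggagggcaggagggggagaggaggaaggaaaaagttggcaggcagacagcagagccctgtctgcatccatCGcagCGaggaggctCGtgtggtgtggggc
Ace: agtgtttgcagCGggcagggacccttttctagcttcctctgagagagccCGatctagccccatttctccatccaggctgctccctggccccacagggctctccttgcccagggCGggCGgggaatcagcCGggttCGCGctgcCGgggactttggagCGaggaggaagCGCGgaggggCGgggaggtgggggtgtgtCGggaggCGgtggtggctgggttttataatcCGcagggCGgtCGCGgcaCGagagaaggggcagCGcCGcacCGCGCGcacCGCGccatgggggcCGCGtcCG

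These windows held 5, 8 and 29 CG dinucleotides. The other member windows held 19 for Kl, 6 for Slc4a5, 8, 2 and 4 for the 3 starts of Prlr and 2 for the second start of Ace, while the quartiles of all 32851 windows were 3, 7 and 20. No CG count was therefore common to the members. Of 4 motifs searched on both strands, TAATCC, the core bound by OTX factors, occurred in the first Ace window only, against 7.06% of all windows. TATAAA occurred in the Slc4a5 and first Ace windows (13.6% of all), and in Ace this match and that of TAATCC share 2 bases. The box CCAAT occurred in the first Prlr and second Ace windows (37.4% of all), and TGTTTAC, a forkhead core, in the second Prlr window (3.65% of all). A match in a window is a description of its letters.

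Other genes used by the choroid plexus, listed with earlier results known, were largely higher too. Of 38 tested, 33 passed the test as higher and 5 did not pass, with a median log2 difference of 0.62, against 12.0% called higher and a median of 0.00 over all genes. Among 15 channels and transporters, 13 rose. The potassium channel subunit Kcne2 went from 82.0 ± 10.4 to 158 ± 10.1 normalized counts (log2 difference 0.95, limma adjusted p = 4.71e-05), while the anion exchanger Slc4a2 (0.32, adjusted p = 0.00292) and the carbonic anhydrase Car12 (0.24, adjusted p = 0.0389) differed less. Car12 and the peptide transporter Slc15a2 were each called in 3 of the 8 fits that left out 1 library, with adjusted p from 0.00512 to 0.131 and from 0.0139 to 0.0873.

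Slc12a2, the sodium-potassium-chloride cotransporter NKCC1 of the apical membrane, did not pass. Its normalized counts were 1649, 1620, 1621 and 1649 in wild-type and 1636, 1642, 1540 and 2068 in Mbd2-/-, a log2 difference of 0.07 (limma adjusted p = 0.560). Only Mbd2-/- replicate 4 stood above the wild-type libraries. With the length trend removed, Slc12a2 was called higher, at 0.17 (limma adjusted p = 0.0415). The organic anion transporter Slc22a8 (0.13, adjusted p = 0.360) did not pass either. Both are also expressed in other brain cells. So is Enpp2, which was higher. The part of other cells was not tested for any gene listed here, called or not.

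Of 7 secreted proteins, 6 rose. Wfikkn2, a secreted antagonist of growth factors of the TGF-beta family, measured 57.0, 51.2, 55.6 and 53.1 normalized counts in wild-type and 112, 153, 149.8 and 146 in Mbd2-/- (log2 difference 1.35, limma adjusted p = 4.39e-06). The genotypes did not overlap, and replicate 1 was the lowest in Mbd2-/-. The growth factor Igf2 (0.43), its binding protein Igfbp2 (0.72) and coagulation factor F5 (0.55) passed with adjusted p of 0.000198, 0.000355 and 0.000615. Cp, the copper carrier ceruloplasmin that astrocytes also make, did not, at -0.13 (adjusted p = 0.292).

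Of 6 genes of the epithelial sheet, the keratin Krt8 (log2 difference 1.02, limma adjusted p = 0.00476), the tight junction claudins Cldn2 (0.99, adjusted p = 0.000310) and Cldn1 (0.61, adjusted p = 0.00618), the protease inhibitor Spint2 (0.61, adjusted p = 0.000715) and Krt18 rose. Cldn3, with means of 9.24 and 12.5 normalized counts, did not pass (0.40, adjusted p = 0.323). The transcription factors Otx2 (0.63, adjusted p = 0.000827) and Lmx1a (1.21, adjusted p = 0.00368) rose at low levels. Msx1 (0.59, adjusted p = 0.0298) was called in 1 of the 8 fits without 1 library, with adjusted p from 7.29e-05 to 0.0946, and was not called with the length trend removed (0.48, adjusted p = 0.0569).

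Among 7 further genes of this epithelium 6 rose, led by Cox8b, a subunit of cytochrome c oxidase. It was counted at 12.0, 9.78, 10.9 and 12.7 in wild-type and at 91.9, 45.7, 71.7 and 49.0 in Mbd2-/-, a log2 difference of 2.36 (limma adjusted p = 8.70e-06). Its Mbd2-/- libraries spread widely but lay far above those of wild-type. Cab39l (0.36, adjusted p = 0.00250) and the sulfatase Sulf1 (0.49, adjusted p = 0.000346) changed less, and the serotonin receptor Htr2c, which neurons also express, did not pass (0.18, adjusted p = 0.177). The number of these 38 genes called higher ranged from 30 to 33 over all settings tried.

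**Figure D5:**
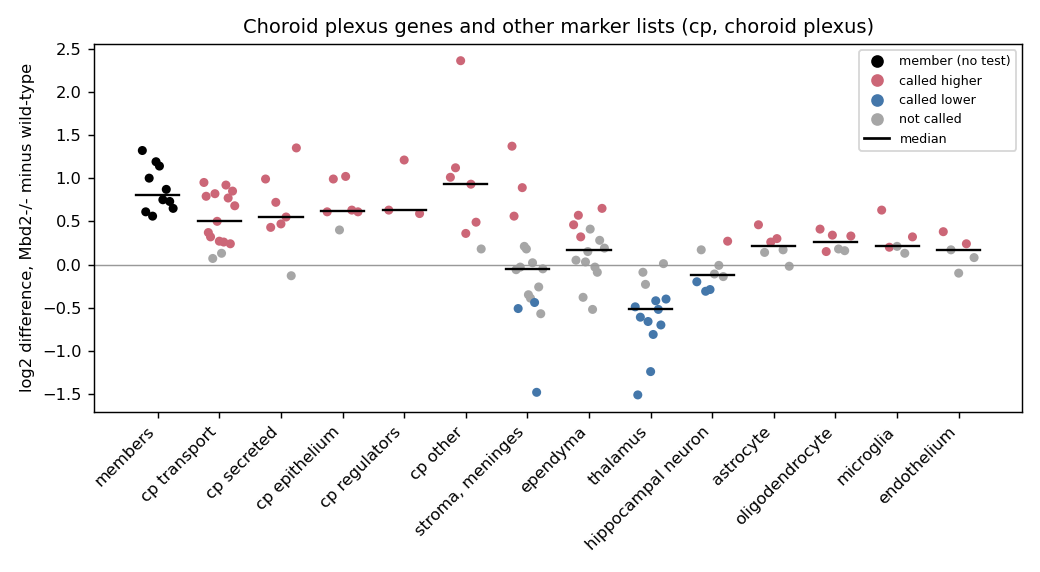
Log2 difference between genotypes (vertical axis) of every tested gene in each marker list (columns), coloured by its limma call, with the list median as a bar. The members in black, given with no test, run from 0.56 to 1.32; choroid plexus lists lie mostly above 0 and the thalamus list mostly below.

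Some markers of neighbouring tissue and of other cell types differed as well, and their part in the member differences was not tested. Genes of the stroma and meninges were mixed, with 3 of 16 higher, 3 lower and a median of -0.05, and their summed counts ran from 1934 to 2012 in wild-type and from 2294 to 2869 in Mbd2-/-. That direction was set by Col1a1, with means of 297 and 778, and Col1a2, with means of 366 and 547. Both of these collagen genes rose, Col1a1 (log2 difference 1.37, limma adjusted p = 7.23e-07) and Col1a2 (0.56, adjusted p = 0.00138), while the retinoid binding protein gene Crabp2 fell (-1.48, adjusted p = 0.000282), and Bgn did not pass (0.18, adjusted p = 0.180). With the length trend removed, 3 of the 16 were higher and 4 lower (median -0.14). The lower calls of the main fit were not all kept when a library was left out, with limma adjusted p up to 0.0616. Ependymal genes, of the ciliated ventricle lining, passed as higher in 4 of 14 (median 0.17, summed counts 849.8 to 961 against 972 to 1093). They included Dnali1 (0.65, adjusted p = 0.0316), Rarres2 (0.57, adjusted p = 0.00999), Ccdc153 (0.46, adjusted p = 0.0232) and Foxj1 (0.32, adjusted p = 0.0472), while Hydin did not pass (-0.38, adjusted p = 0.0701). Of these only Rarres2 was called whichever library was left out, and none of the 4 was called by limma once the length trend was removed, when 2 ependymal genes were higher at an unadjusted p under 0.05. Their log2 differences were then 0.57 for Dnali1 and 0.28 for Foxj1, little changed, and 0.25 for Rarres2 and 0.23 for Ccdc153.

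Thalamic genes went the other way. Of 13 tested, 10 passed as lower, with a median log2 difference of -0.52 and summed counts of 4375 to 4540 in wild-type and 2882 to 3182 in Mbd2-/-, without overlap. They included Gbx2 (-1.51, limma adjusted p = 0.00589), Shox2 (-1.24, adjusted p = 0.000196), Zic1 (-0.70, adjusted p = 3.46e-05), Prkcd (-0.61, adjusted p = 1.65e-05) and Plekhg1 (-0.40, adjusted p = 0.00114). Gbx2 was near the floor, with means of 23.3 normalized counts in wild-type and 7.92 in Mbd2-/-, where it had 3 to 10 reads. Its Mbd2-/- mean lay below the minimum of 10, which it passed through the wild-type libraries. The thalamus lies beneath the hippocampus, and the part of the dissection in these values was not tested.

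Genes of hippocampal neurons differed less, with 1 of 8 called higher (Camk2a, log2 difference 0.27, limma adjusted p = 0.000138), 3 lower, Wfs1 (-0.31, adjusted p = 0.000793), Fibcd1 (-0.29, adjusted p = 0.00318) and Prox1 (-0.20, adjusted p = 0.0230), and a median of -0.13. Prox1 was called in 3 of the 8 fits that left out 1 library, with adjusted p from 0.000573 to 0.0772. Slc17a7 (-0.14, adjusted p = 0.0838) and Neurod2 (-0.11, adjusted p = 0.153) did not pass, and Slc17a7 passed as lower with the length trend removed (-0.16, adjusted p = 0.0325). Their summed counts were 93423 to 95339 in wild-type and 102573 to 108245 in Mbd2-/-, a direction set by Camk2a, whose mean went from 68037 to 81908, while those of Slc17a7 were 16296 and 14805.

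Of the glial and vascular genes, some were higher, by log2 differences of up to 0.63 (Aif1), and others did not pass. For astrocytes 3 of 6 were higher (median 0.21, summed counts 102495 to 104902 against 111474 to 135054), with Gfap at 0.46 (limma adjusted p = 3.30e-05) and Slc1a3 at 0.30 (adjusted p = 0.000253), and Slc1a2 did not pass (0.17, adjusted p = 0.0525). With the length trend removed 5 of the 6 astrocyte genes were higher (median 0.32), as Slc1a2 (0.33, adjusted p = 1.15e-06) and the water channel Aqp4 (0.21, adjusted p = 0.0178) then passed. For oligodendrocytes, which also express Enpp2, 4 of 6 were higher (median 0.26, sums 74895 to 76179 against 88504 to 94759), with Mbp at 0.41 (adjusted p = 2.82e-05) and Mog at 0.34 (adjusted p = 0.000526), and Cnp did not pass (0.16, adjusted p = 0.0527). For microglia 3 of 5 were higher (median 0.21, sums 2976 to 3100 against 3380 to 3648), with Aif1 at 0.63 (adjusted p = 0.00999), Tmem119 at 0.32 (adjusted p = 0.0273) and Cx3cr1 at 0.20 (adjusted p = 0.0179), while Csf1r (0.13, adjusted p = 0.0749) and P2ry12 (0.21, adjusted p = 0.339) did not pass. For endothelium 2 of 5 were higher (median 0.17, sums 1883 to 1990 against 2049 to 2169), with Cldn5 at 0.38 (adjusted p = 0.00334) and Slco1a4 at 0.24 (adjusted p = 0.0267), and Flt1 did not pass (-0.10, adjusted p = 0.357). Of the red cell genes, Alas2 was lower (-0.23, adjusted p = 0.0236) and Slc4a1 did not pass (-0.30, adjusted p = 0.247), with sums of 472 to 519 against 379 to 439. Among these calls, those of Tmem119, Cx3cr1, Slco1a4 and Alas2 were lost in at least 1 of the 8 fits that left out a library. With the length trend removed, Aif1 (0.36, adjusted p = 0.118) and Tmem119 (0.25, adjusted p = 0.0584) were not called and Csf1r was (0.19, adjusted p = 0.0128).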

How the data were processed

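Hippocampal RNA of 4 wild-type and 4 Mbd2-/- libraries, depleted of ribosomal RNA with RiboMinus, was read as 100-base paired ends on an Illumina HiSeq. Per the labels and the methods of the study, the authors discarded duplicates, mapped reads to mm9 by STAR and used DESeq2. Versions and the counting tool are not given in the sources used here. The deposited signal is a DESeq2 normalized count, the reads of a gene over the size factor of its library. The deposited table also holds the authors' mean over libraries and the columns of their comparison (fold change, standard error, statistic, p-value and adjusted p-value), which were not used.

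Dividing by the smallest value of a library turned 100% of its values into whole reads (tolerance 0.01), which gave the recovered reads. Depth therefore ranged from 8087750 to 23790825 reads on genes. Intervals from reads cover counting error only. Library pairs of 1 genotype differed by 1.95 to 15 times the counting variance, more than the same library read again would. Separate libraries made from the same RNA could also exceed it, so the values do not show that the pools were independent.

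The test was limma 3.58.1 (R 4.3.3, trend, robust, two-sided), run on log2(normalized count + 1) for the 14504 genes averaging 10 or more, with Benjamini-Hochberg adjustment over all of them at 0.05. Folds on that scale understate changes of low genes. The replicates are pools of mice. Alternatives used edgeR 4.0.16, DESeq2 1.42.0, limma-voom and TMM scaling, other pseudocounts (0.5 and 5), no filter, a length trend removed from each library by lowess (span 0.667), a replicate block, and each library left out. Code was tested on simulated data. Python 3.11.15 made the other summaries.

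The members and gene lists were chosen with earlier results of these data known. The text names the 10 members, Mbd2, in each choroid plexus list the genes called lower or not called, the 3 most abundant and the most changed called gene, in each other list the 3 most abundant and up to 2 most changed called genes, and the 10 genes most correlated with the members. Slc15a2, Krt18, Prox1 and Aqp4 are named beside these and were chosen after their values were seen. A gene that the rule also names is not reported here. Positions and lengths come from GENCODE vM1 (18102 of 19201 symbols matched). Promoters come from RefSeq (GRCm38.p6), and Ttr, Folr1, Clic6 and Enpp2 have no entry in that table. Deviations of same-numbered libraries correlated at -0.10, -0.06, 0.07 and 0.04 across genes, which showed no pairing by replicate number. Libraries with different numbers were not compared, so whether the libraries were paired is not known.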

Additional observations from a re-analysis of the deposited data

Results flagged for a closer look

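Ace in Mbd2-/- replicate 4, at 568 normalized counts, lay far below the other 3 Mbd2-/- libraries, with a gap of 0.867 of the whole range. Wfikkn2 in Mbd2-/- replicate 1, at 112 normalized counts, was set apart in the same way, with a gap of 0.835 of the range. These were 2 of 26 groups of 4 libraries checked, over 13 genes, and chance alone sets apart about 5% of groups.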

How the results depend on the processing

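The members were chosen on the genotype contrast, so their differences are given under other settings as values only. Removing the length trend changed 4 of them by more than the spread between replicates, giving 1.12 for Ttr, 0.73 for 1500015O10Rik, 0.63 for Kl and 0.96 for Folr1. Of 334 alternative values, 314 kept their direction and size and 20 moved.

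The number of all genes called, 3185, fell to 2121 with the length trend removed and ranged from 2073 to 5156 when 1 library was left out. Leaving out wild-type replicate 1 gave 2099 and replicate 3 gave 2073, and leaving out Mbd2-/- replicate 1 gave 2100, replicate 2 gave 2109 and replicate 4 gave 5156. Ependymal genes called higher, 4, came to 2 with limma-voom, to 0 by limma with the length trend removed (2 were higher at an unadjusted p under 0.05), and to between 1 and 5 without 1 library. The low counts came without wild-type replicates 1 (1), 2 (2) and 3 (2) and Mbd2-/- replicates 1 (1), 2 (1) and 3 (2). The cause was not tested.

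The median pairwise correlation of the members, -0.14, ranged from -0.23 to 0.02 without 1 library, at 0.02 when Mbd2-/- replicate 3 was left out and -0.03 when replicate 4 was. With the replicate number as a block, 3192 of all genes and 33 of the other choroid plexus genes were called. The block changed no count by over 1.5 times, and whether the numbers pair the libraries is not known. For members with few reads, depth limits what can be seen of movement between libraries.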
